A study of Homo sapiens with 12 samples.

Results

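The genes described here are those of the class II part of the major histocompatibility complex (MHC) and CD74, their invariant chain. PAX5 peaks were taken from 2 intervals of the human genome build hg19, which are defined by position. Earlier results of these data were known when the intervals were chosen. One is chromosome 6 from 32.38 to 33.08 Mb, which runs from HLA-DRA to HLA-DPB1 and is 700 kb wide, and the other is chromosome 5 from 149.76 to 149.82 Mb, which holds CD74 and is 60 kb wide. Of 25380 peaks in the 6 lists, 3 lay in these intervals, and the 3 formed 1 of the 14465 merged regions of the whole series. That region lay in the CD74 interval, and the class II interval held 0 peaks in each of the 6 lists.

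MHC class II molecules sit on B cells and other antigen-presenting cells and show peptides of taken-up proteins to CD4+ T cells. Each is a pair of an α and a β chain that is folded with the CD74 invariant chain, which blocks the groove and steers the pair to the compartment where peptides are loaded. There HLA-DM trades the remnant of CD74 for peptide, and HLA-DO holds HLA-DM back. These genes are transcribed together under the coactivator CIITA, which is brought to short promoter elements by RFX, CREB and NF-Y. PAX5 is a paired-box transcription factor on which B-cell commitment and identity depend.

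PAX5 was precipitated from chromatin of Raji and Namalwa, 2 untreated lines of Burkitt lymphoma, and of L428-PAX5, a derivative of the classical Hodgkin lymphoma line L428. L428-PAX5 received Mifepristone, and PAX5 overproduction was switched on 48 h before fixation. All cells were fixed with 1% formaldehyde for 20 min. There were 2 immunoprecipitated and 2 input libraries per line, 12 samples in all, and peak lists of the 6 immunoprecipitated libraries were used. The input libraries were not analysed here, nor was L428 without induction, so the L428-PAX5 sites cannot be divided into those of induced and those of resident protein. Hodgkin lymphoma is represented by L428-PAX5 alone. Separate cultures for the libraries of a line are not stated in the labels, so the spread between libraries may be technical. The lists held between 2107 and 6241 peaks, all with a p-value below 1e-05, and read depth is unknown.

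CD74 was the 1 gene of the 10 whose interval held a PAX5 peak. CD74 lies between TCOF1 and RPS14 in the order of protein-coding genes of the RefSeq table, which is on GRCh38.p14. The promoter sequence of CD74 is shown because it belongs to the 1 gene whose interval held peaks, and those of HLA-DRB1, the most variable chain of the DR molecules, and HLA-DMA, a chain of the peptide exchanger, are shown because their interval held none. Each is the 250 bases before the gene's start, 5′ to 3′ on the gene's strand, from RefSeq on GRCh38.p14, and capitals mark CCAAT, the letters bound by NF-Y, or its reverse complement ATTGG. Whether the peaks cover the CD74 stretch cannot be given, because the peaks are on hg19 and no annotation of that build was used here.
CD74, chr5:150412911-150413160, minus strand: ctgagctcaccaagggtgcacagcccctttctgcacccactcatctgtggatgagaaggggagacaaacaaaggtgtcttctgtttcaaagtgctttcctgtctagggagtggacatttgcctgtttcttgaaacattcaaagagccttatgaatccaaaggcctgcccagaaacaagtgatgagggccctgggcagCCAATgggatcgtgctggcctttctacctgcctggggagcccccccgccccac
HLA-DRB1, chr6:32589849-32590098, minus strand: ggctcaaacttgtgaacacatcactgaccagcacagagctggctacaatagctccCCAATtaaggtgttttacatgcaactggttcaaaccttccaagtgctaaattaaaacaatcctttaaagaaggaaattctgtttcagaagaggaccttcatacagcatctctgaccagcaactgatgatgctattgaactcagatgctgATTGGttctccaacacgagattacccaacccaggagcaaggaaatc
HLA-DMA, chr6:32953098-32953347, minus strand: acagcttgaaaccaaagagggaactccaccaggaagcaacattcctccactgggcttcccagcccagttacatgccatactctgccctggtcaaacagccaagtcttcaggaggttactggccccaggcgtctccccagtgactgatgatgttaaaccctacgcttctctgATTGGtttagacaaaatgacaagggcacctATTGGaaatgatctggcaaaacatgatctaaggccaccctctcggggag

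Of the 10 genes, 9 had a promoter in that table, with 10 entries since HLA-DPA1 has a pair. CCAAT on either strand was found upstream of 8 of the 9 genes, which were CD74, HLA-DMA, HLA-DMB, HLA-DOB, HLA-DPB1, HLA-DQA1, HLA-DQB1 and HLA-DRB1. It was found in 32.0% of all 35116 promoters of the same length. In CD74 it begins 53 bases before the start, in HLA-DRB1 46 and 195 bases before, and in HLA-DMA 49 and 79 bases before. The letters GCNTGAC, close to the core of the PAX5 motif, were searched on both strands and found in 0 of the 10 entries. They were found in 3159 of the 35116 promoters, or 9.0%. At that share, 10 entries are too few for a count of 0 to show that the letters are rarer here. These letters were chosen after several strings had been tried, and the matches describe the sequences only.

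At CD74, peaks were found in both Raji libraries and in 1 of the 2 Namalwa libraries. Raji 1 had its peak at chromosome 5, 149791999 to 149792796, and its −log10 p was 7.51. In Raji 2 the peak ran from 149792031 to 149792899 and its −log10 p was 10.3. In Namalwa 1 it ran from 149792002 to 149792746 and its −log10 p was 8.38. Namalwa 2, L428-PAX5 1 and L428-PAX5 2 had none. The peak was thus present in 3 of 4 libraries of the B-cell lines and in 0 of 2 of L428-PAX5, and the groups overlap through Namalwa 2.

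The 3 CD74 peaks lay almost exactly on each other. Their starts differed by 32 bp, their ends by 153 bp and their centres by 91 bp. All 3 shared a core of 715 bp, from 149792031 to 149792746, which made up 89.7% of the Raji 1 peak, 82.4% of the Raji 2 peak and 96.1% of the Namalwa 1 peak. The merged region of 900 bp began 32.0 kb after the start of the interval and ended 27.1 kb before its end, so that no peak touched an edge.

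**Figure D1:**
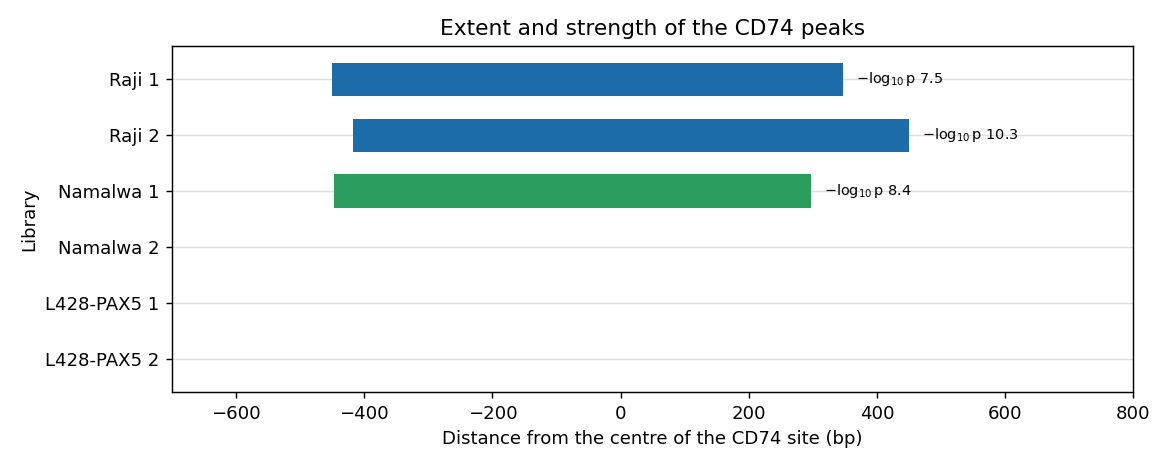
Extent of the PAX5 peaks in each library at the CD74 site, in bp from the centre of the merged region, with the −log10 p of each peak beside its bar. The peaks of Raji 1, Raji 2 and Namalwa 1 share a core of 715 bp, and the rows of Namalwa 2 and both L428-PAX5 libraries are empty.

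Within the deposited lists the CD74 peaks ranked near the middle by p-value, and they were broad. The p-value, which is the authors', ranked 1324 of 2619 in Raji 1, 1783 of 4960 in Raji 2 and 3252 of 6241 in Namalwa 1. As a percentile of its list, where a higher value is a stronger peak, it was 49.4 in Raji 1, 64.1 in Raji 2 and 47.9 in Namalwa 1. Over the Raji libraries the mean was 56.7 ± 10.4 (SD, n = 2). Ranked by width instead, the peaks of 797, 868 and 744 bp stood at percentiles 89.2, 93.1 and 78.0 of their lists, whose median widths were 461, 465 and 545 bp. When every list was shortened to 2107 peaks by p-value, as many as Namalwa 2 has, the CD74 peak stood at percentile 37.1 in Raji 1 and only 15.4 in Raji 2, in the reverse order, and was not kept in Namalwa 1. The percentiles thus move with the length of the list. In the better part of each list (50% of its peaks), only Raji 2 kept it.

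The pattern of libraries at CD74 was set beside that of all regions. A peak in both Raji libraries was found at 15.1% of the 14465 regions, and a peak in exactly Raji 1, Raji 2 and Namalwa 1 at 532 of them, or 3.68%. Among the 1625 regions with peaks in those 3 libraries, with or without others, 59.4% also had one in Namalwa 2 and 24.5% had one in either L428-PAX5 library, while 32.7% had none elsewhere, as at CD74. Over all regions, 47.6% were listed in either L428-PAX5 library.

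Peaks of about the rank of CD74 were mostly missing from Namalwa 2 and L428-PAX5, and to a varying degree from the other lists. Each list was divided by rank into 4 classes of equal size, numbered from the strongest. The Namalwa 1 peak at CD74 belonged to class 3, and of the 1565 peaks of that class 12.6% were also in Namalwa 2 (exact 95% interval 11.0 to 14.3%) and 11.8% in either L428-PAX5 library (10.2 to 13.5%). Of the same class 19.2% were in Raji 1 and 35.1% in Raji 2, so the presence of CD74 in both Raji lists was not what most of them showed. The Raji 1 peak belonged to class 3 too, of which 28.5% were in Namalwa 2, 17.4% in either L428-PAX5 library (14.6 to 20.5%), 60.6% in Namalwa 1 and 79.8% in Raji 2. The Raji 2 peak belonged to class 2, of which 50.2% were in Raji 1, 61.7% in Namalwa 1, 26.8% in Namalwa 2 and 15.8% in either L428-PAX5 library (13.8 to 17.9%). Most peaks of these classes were, like that of CD74, not listed in Namalwa 2 or in L428-PAX5. The classes rest on the rank in 1 list only. Of the 1625 regions with peaks in Raji 1, Raji 2 and Namalwa 1, 59.4% were in Namalwa 2 and 24.5% in either L428-PAX5 library. Among these regions, absence from Namalwa 2, as at CD74, was thus the less common case, and absence from L428-PAX5 the more common. A site not listed can also lie just under the threshold of its list, whose weakest peaks had a −log10 p of 5.01 in all 6 lists.

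As a share of its list, the 1 peak came to 0.0382% in Raji 1 (exact 95% interval 0.000967 to 0.213%), 0.0202% in Raji 2 (0.00051 to 0.112%) and 0.0160% in Namalwa 1 (0.000406 to 0.0892%). The count of 0 allowed a share of up to 0.142% in Namalwa 2, 0.0484% in L428-PAX5 1 and 0.0923% in L428-PAX5 2, and each of these limits is above all 3 shares measured. Over Raji and Namalwa the mean share was 0.0186 ± 0.0157% (SD, n = 4), and it was 0% in both L428-PAX5 libraries. The difference of 0.0186 percentage points had a two-sided exact permutation p of 0.333 over the 15 choices of 2 libraries, where 0.0667 is the smallest p that the design allows. With Namalwa 2 at 0 as well, a p of 0.0667 could not be reached here. Each library held 1 peak or 0, so a share above 0 was only 1 over the length of its list. The test therefore cannot decide whether the lines differed in the number of sites at these genes. These intervals and limits cover counting error over peaks only.

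The neighbours of CD74 on chromosome 5 showed which libraries had sites nearby. Just outside the interval, 9.08 kb past its end, lay a Namalwa 1 peak from 149829077 to 149829685 (−log10 p 6.09, percentile 21.2), and 35.2 kb past the end a Raji 2 peak from 149855213 to 149855622 (−log10 p 9.97, percentile 62.1). Neither was found in a second library. Counting the interval and 1 Mb on each side, there were 17 regions, of which Raji 1 had 6, Raji 2 had 8, Namalwa 1 had 8, Namalwa 2 had 5, L428-PAX5 1 had 6 and L428-PAX5 2 had 2. The L428-PAX5 libraries therefore did list peaks around CD74, and those nearest to the interval lay 327 kb before it and 330 kb (L428-PAX5 1) or 339.7 kb (L428-PAX5 2) after it.

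In that neighbourhood 4 regions had a peak in all 4 libraries of the B-cell lines, and none of the 4 had one in L428-PAX5. Over the whole series, only 24.5% of the 1625 regions with peaks in Raji 1, Raji 2 and Namalwa 1 had one in either L428-PAX5 library. Absence from L428-PAX5 was thus common at such regions and is not particular to these 4. The share among regions in all 4 libraries was not counted. The 4 regions lay 784, 798.3, 802 and 821 kb from the CD74 site. The one at 150590516 to 150590978 led the 4 by p-value in both Raji lists but not in the Namalwa lists, and had a −log10 p of 10.8 to 43.4 and percentiles of 74.5 to 99.3, all above the 47.9 to 64.1 of CD74. The one at 821 kb was weaker than CD74 in Raji 1 (percentile 30.5) and Raji 2 (63.4) and stronger in Namalwa 1 (90.8). Namalwa 2, which had no peak at CD74, listed all 4. Both L428-PAX5 libraries had sites of their own at 149432734 to 149433185 and, with Namalwa 1, at 150159723 to 150160756.

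**Figure D2:**
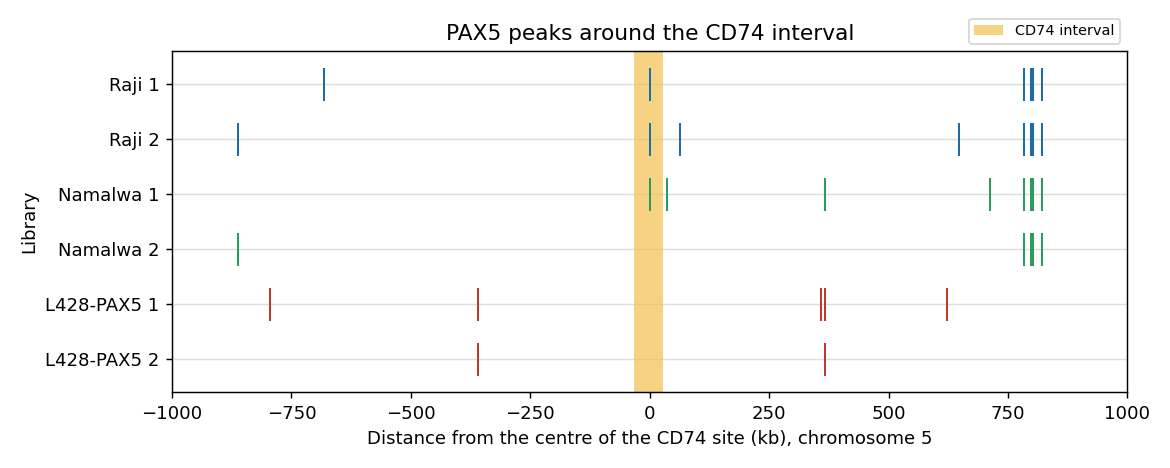
PAX5 peaks of the 6 libraries within 1 Mb of the centre of the CD74 site, as distance in kb, with the CD74 interval shaded and marks drawn wider than the peaks. The site at 0 is filled in Raji 1, Raji 2 and Namalwa 1, and the cluster at 784 to 821 kb is filled in all 4 libraries of the B-cell lines and empty in L428-PAX5.

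The interval that the class II chain genes share held no PAX5 peak in any library. This holds for the α and β chains that present peptide, HLA-DRA, HLA-DRB1, HLA-DQA1, HLA-DQB1, HLA-DPA1 and HLA-DPB1, and for the loading factors HLA-DMA, HLA-DMB and HLA-DOB, in Raji and Namalwa as much as in L428-PAX5. In the RefSeq order the span from HLA-DRA to HLA-DPB1 holds 18 protein-coding genes. Beside the 9 named ones these are HLA-DRB5, HLA-DQA2, HLA-DQB2 and HLA-DOA, further class II chains, then TAP1 and TAP2, the peptide transporter of the class I pathway, PSMB8 and PSMB9, subunits of the immunoproteasome, and BRD2, a chromatin reader. That is 27.7 protein-coding genes per Mb, against 6.14 per Mb over chromosome 6 of GRCh38.p14.

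An empty window of this width was no rarity in a single list. Of 4263 adjoining windows as wide as the class II interval, the share without a peak was 66.8% in Raji 1, 52.3% in Raji 2, 47.1% in Namalwa 1, 71.3% in Namalwa 2, 44.3% in L428-PAX5 1 and 59.7% in L428-PAX5 2, and 25% had no peak in any of the 6 lists. The windows were laid between the first and the last peak of each chromosome and include centromeres. They were not matched to the high gene density of the class II interval. For the narrow CD74 interval, a window of equal width held a peak in 4.51% of cases in Raji 1, 7.81% in Raji 2, 9.73% in Namalwa 1, 3.74% in Namalwa 2, 9.89% in L428-PAX5 1 and 5.59% in L428-PAX5 2. In 19.9% of these windows at least 1 of the 6 lists had a peak. Windows with a peak in 3 lists, as in the CD74 interval, were not counted.

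The class II interval lay inside a much longer stretch without peaks. In the 6 lists combined, no peak was found from 28351738 to 33476206 on chromosome 6, a stretch of 5.12 Mb that begins 4.03 Mb before the class II interval and ends 396 kb after it. It was the longest of 840 such stretches on chromosome 6 and ranked 11 of 14436 in the genome, where the median was 65.7 kb. Of the 10 longer ones, 3 were on chromosome X and 2 on Y, and the others were 1 each on chromosomes 1, 4, 9, 13 and 16. With X and Y left out, the stretch on chromosome 6 ranked 6 of 14183. These ranks belong to the whole stretch of 5.12 Mb, of which the class II interval of 700 kb is only a part. Within single lists the stretch was less exceptional and measured from 5.14 Mb (L428-PAX5 1, rank 45 of 6140) to 6.55 Mb (Namalwa 2, rank 90 of 2066).

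**Figure D3:**
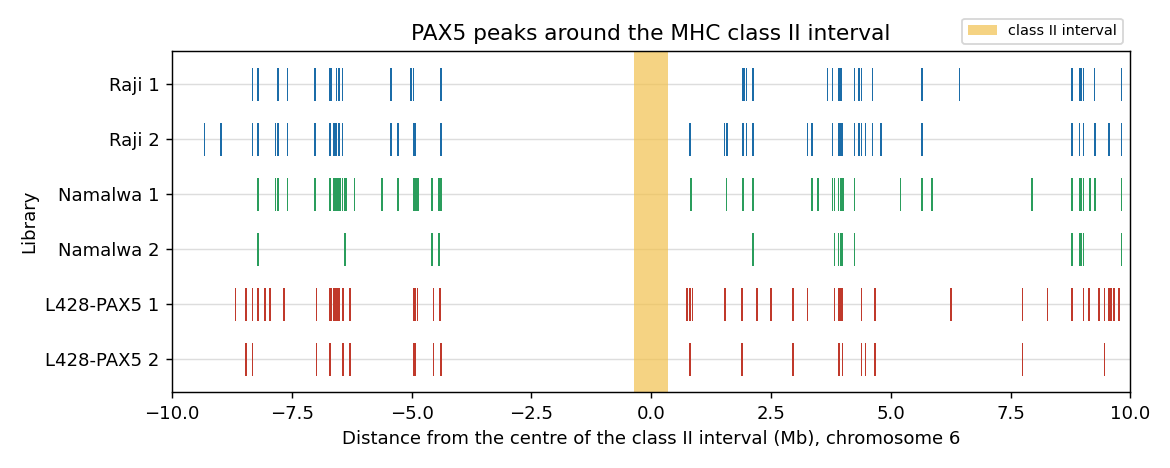
PAX5 peaks of the 6 libraries on chromosome 6 within 10 Mb of the centre of the class II interval, as distance in Mb, with the interval shaded and marks drawn wider than the peaks. All 6 rows are empty across the same stretch of at least 5.12 Mb and hold peaks on both sides of it.

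The left edge of the stretch was alike in the 6 lists and the right edge less so. The left edges of the 6 lists fell within 47.2 kb, the right edges within 1.38 Mb. The right edge lay at 34642717 in Raji 1 and at 34856745 in Namalwa 2, the shortest lists with 2619 and 2107 peaks. In the other lists, which include all 3 lines, it lay from 33476206 to 33560294. On the left, 5 of the 6 lists shared a site at 28339561 to 28340072, with Namalwa 2 as the exception. On the right, the nearest site shared between lines lay at 33538530 to 33539393 in Raji 2, L428-PAX5 1 and L428-PAX5 2. In the 5 Mb before the stretch, the lists held from 4 (Namalwa 2) to 39 (Namalwa 1) regions and 65 together, and in the 5 Mb after it from 6 (Namalwa 2) to 22 (Raji 2) and 45 together. These are 13 and 9 regions per Mb, against 4.94 per Mb over the whole of chromosome 6, and in each of the 6 lists both flanks were denser than the chromosome as a whole.

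**Figure D4:**
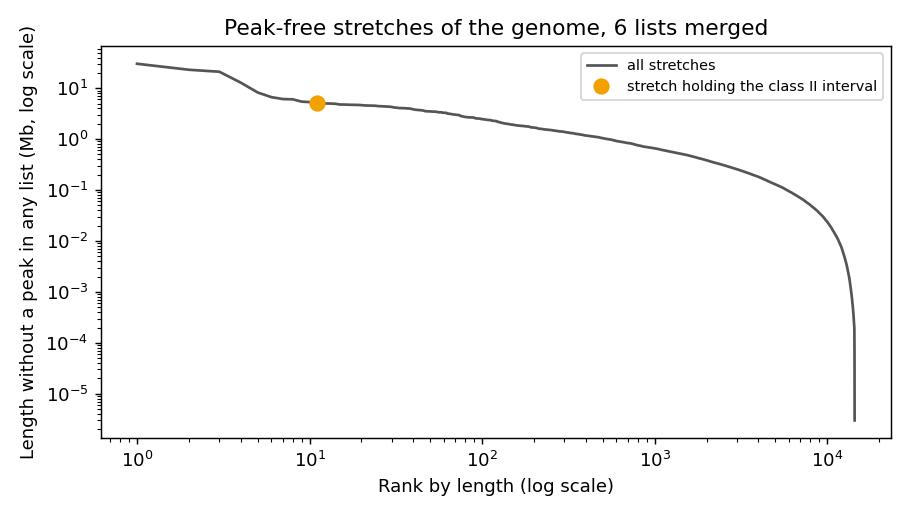
Length in Mb of every stretch between neighbouring peaks of the 6 lists merged, against its rank by length, both on log scales. The stretch that holds the class II interval, marked by the point, measures 5.12 Mb and ranks 11 of 14436.

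The peak names of each list are numbered in the order of position without a gap, and the numbering ran on across the stretch, from 416 to 417 in Raji 1 and from 1255 to 1256 in L428-PAX5 1. The rows of the deposited lists thus have no missing number there. None of the 6 lists held a peak on an alternate haplotype sequence of the MHC, which hg19 carries as separate contigs, although 40 peaks lay on 5 unplaced contigs. Whether reads were aligned to those haplotype sequences, and how reads matching several places were treated, is not given in the sources used here, and its part in the empty stretch was not tested. A peak list does not tell a place without binding from a place whose reads were not counted, so the count of 0 at the class II genes does not show that PAX5 was absent there.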

How the data were processed

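PAX5 chromatin immunoprecipitation with 10 µg of antibody was sequenced in 6 libraries, and the labels' titles gave line and replicate. Per the submitters' processing notes, BWA 0.5.9-r16, the build hg19 and CASAVA in versions 1.3 and 1.8 were used. The authors deposited 1 list per library, with a p-value per peak. The peak caller PeakRanger appears in the peak names. Caller settings, and any use of the input, were not given in the sources used here, and neither was the base of the start coordinate (0 or 1). Coordinates are printed as deposited.

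Peaks overlapping by at least 1 bp or touching were merged into regions. Percentiles rank the p-value within a list. Shares carry exact (Clopper-Pearson) 95% intervals, and a count of 0 is given as a limit of 3 counts. All regions in the intervals are named, as planned. The nearest gene was not assigned, and the planned pathway genes elsewhere (CIITA, RFX5 and others) were not described, since no hg19 annotation was used here and coordinates were not converted. The intervals, members and lists were chosen with earlier results of these data known, and the peak-free stretch, windows, rank classes, flanks and promoter letters were chosen after seeing the lists. Merging and permutation were tested on simulated lists. Computations ran in Python 3.11.15 with scipy 1.17.1, pandas 2.3.3 and numpy 2.4.6, and plots in matplotlib 3.10.9.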

Additional observations from a re-analysis of the deposited data

How the results depend on the processing

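The count of 0 peaks in the class II interval was the same in all 12 alternatives tried, but none of them could change it. Most only dropped or regrouped peaks. Widening by 50 kb on each side did not reach the nearest peak, 396 kb away, and the lists hold no peaks on haplotype contigs. With the better 50% of each list there was 1 peak in both intervals, in 1 list (Raji 2), so that 0 regions had a peak in all Raji lists and 1 region was found in 1 list. With widened intervals there were 5 peaks in 3 regions, 2 of them found in 1 list. Reciprocal overlap of 50% and centres within 200 bp gave the same region. With each library left out in turn, the number of regions with a peak in all lists of the B-cell lines was 0 to 1, and it was 1 without Namalwa replicate 2, by construction. In lists of equal length the CD74 peak stood at percentile 37.1 in Raji 1 and 15.4 in Raji 2, and Namalwa 1 had none. The difference in share was 0.0101 to 0.0276 percentage points over 11 alternatives, with an exact permutation p of 0.1 to 1. Its sign was fixed, since L428-PAX5 had no peak in the intervals in any alternative. The permutation p of 0.1 came from leaving out Namalwa replicate 2, the library of the B-cell lines without the peak. With labels permuted within the replicate number, as a replicate block, the difference was 0.0186 with an exact permutation p of 0.333 over 9 choices. No fit could pass 0.05, so nothing follows for its call. Depth is unknown, and a peak under the threshold of a list leaves no trace in it.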
